A study of Homo sapiens with 4 samples.

Results

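The enzymes described here make serine from glucose and pass its carbon into the folate pathway, and they are PHGDH, PSAT1, PSPH, SHMT1, SHMT2, MTHFD1, MTHFD1L, MTHFD2 and ALDH1L2. They were measured by 33 of the 49293 probe sets tested, those paired with 1 gene whose symbol is among these 9, out of 18132 genes measured in all. The cells were OE33, an established human line from an adenocarcinoma of the oesophagus. They had been transfected with an ON-TARGETplus SMARTpool against ARID1A, a subunit of the SWI/SNF chromatin remodelling complex, or with an ON-TARGETplus Non-targeting Pool, called mock here. Both groups were grown in RPMI with 15% serum, transfected by lipofection at 50 nM siRNA 24 hours after plating and harvested 48 hours later. There were 2 biological replicates of each group, so 4 Affymetrix PrimeView arrays, and the labels do not say whether the replicates came from separate cultures. The knockdown is a transient one in 1 cell line with 1 siRNA pool.

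The series asked which genes lie downstream of ARID1A. These 9 enzymes were chosen by their place in the route, but with the knockdown-over-mock log2 changes of this table already known, that of PHGDH above all. Their changes are therefore given as a description, with standard errors from the fit over the whole table and with no p-value. RMA, named in the submitters' processing notes, gives log2 values, so a difference of 1 is a change of 2-fold. Array brightness depends on the probes, so that levels are compared between arrays for 1 probe set and never between genes.

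Serine synthesis branches off glycolysis at 3-phosphoglycerate. PHGDH oxidises it, PSAT1 transfers an amino group onto the product, and PSPH removes the phosphate to leave serine. The hydroxymethyltransferases then move a carbon from serine onto tetrahydrofolate, leaving glycine, SHMT2 in the mitochondrion and SHMT1 in the cytosol. In mitochondria MTHFD2 and MTHFD1L carry that carbon on to formate, which leaves for the cytosol, where MTHFD1 puts it back on folate for purine, thymidylate and methionine synthesis. ALDH1L2 burns the mitochondrial formyl group to carbon dioxide with production of NADPH. Many genes of this route are known targets of ATF4, a transcription factor induced when amino acids run short, and the purine and folate enzymes are also known targets of MYC.

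Start-site sequences are shown for the serine enzymes with the highest changes (PHGDH and PSAT1), for the mitochondrial enzyme that held both motifs searched (MTHFD1L), and for SHMT1, whose change ran the other way. They are RefSeq windows of 300 bases on GRCh38.p14, from 250 bases before the start site to 50 after it, which begins at base 251, and they are not tied to the probe sets. Of the 9 enzymes 6 had a window in the table, with 9 windows in all. The letters searched on both strands were TGATGNAA, the core of the C/EBP-ATF response element that ATF4 binds, and CACGTG, the E-box that MYC binds. The matches are in capitals.
PHGDH (chr1:119711684-119711983, plus strand): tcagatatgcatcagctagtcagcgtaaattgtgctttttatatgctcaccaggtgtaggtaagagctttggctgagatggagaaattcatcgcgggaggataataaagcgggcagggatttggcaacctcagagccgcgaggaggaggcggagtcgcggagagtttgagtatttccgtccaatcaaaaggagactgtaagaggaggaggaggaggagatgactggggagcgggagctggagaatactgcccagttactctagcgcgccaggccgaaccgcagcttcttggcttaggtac
PSAT1 (chr9:78296875-78297174, plus strand): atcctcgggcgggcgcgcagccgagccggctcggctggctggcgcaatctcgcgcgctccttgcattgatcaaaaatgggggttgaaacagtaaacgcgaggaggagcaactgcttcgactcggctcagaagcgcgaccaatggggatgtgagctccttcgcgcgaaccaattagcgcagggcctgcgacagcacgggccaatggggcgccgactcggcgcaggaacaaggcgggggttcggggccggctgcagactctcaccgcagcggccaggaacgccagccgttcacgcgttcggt
MTHFD1L (chr6:150866236-150866535, plus strand): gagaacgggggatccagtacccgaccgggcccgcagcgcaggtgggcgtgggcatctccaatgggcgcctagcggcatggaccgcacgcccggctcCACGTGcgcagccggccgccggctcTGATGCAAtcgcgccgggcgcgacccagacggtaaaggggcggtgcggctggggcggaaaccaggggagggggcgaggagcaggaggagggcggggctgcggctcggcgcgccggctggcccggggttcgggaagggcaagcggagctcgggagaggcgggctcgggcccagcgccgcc
SHMT1 (chr17:18363501-18363800, minus strand): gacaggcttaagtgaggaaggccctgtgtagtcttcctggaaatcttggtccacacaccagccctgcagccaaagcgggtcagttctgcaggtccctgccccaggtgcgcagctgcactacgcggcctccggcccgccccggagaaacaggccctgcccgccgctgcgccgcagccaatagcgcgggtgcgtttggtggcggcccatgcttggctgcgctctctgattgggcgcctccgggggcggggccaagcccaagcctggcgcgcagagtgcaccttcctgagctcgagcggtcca

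The windows of PHGDH, PSAT1 and SHMT1 held neither motif. MTHFD1L had 4 windows, of which 3 overlapped and held the same pair of matches. In the one shown, the E-box lay at bases 97 to 102 and the response element, TGATGCAA, at bases 122 to 129. MTHFD1, the cytosolic counterpart, held an E-box alone, at bases 236 to 241 of its window (chr14:64388103-64388402). MTHFD2 held neither. Of all 35116 windows in the table, 3.62% held the response element core and 7.26% the E-box. A match here is a string of letters in a window and not a measured binding site.

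The transfection lowered its target. At its brightest probe set ARID1A read 7.53 and 7.53 in knockdown against 9.28 and 9.33 in mock, a log2 change of -1.78 (SE 0.0718, limma adjusted p = 0.0218). Its 5 other probe sets had changes from -1.61 to 0.11, and 3 of them passed the test, while the mean over all 6 was -1.07. Array medians ran from 5.90 to 5.92 in knockdown and from 5.89 to 5.93 in mock. All 5 epithelial markers lay at or above the 98.4th percentile of brightness, as the label of a carcinoma line asks. The summed level of 5 fibroblast markers was 7.02 to 7.19 in knockdown and 7.18 to 7.32 in mock on the log2 scale. For 5 leukocyte markers it was 8.05 to 8.07 in knockdown and 8.24 to 8.35 in mock, and for 4 endothelial ones 7.60 to 7.62 in knockdown and 7.78 to 7.82 in mock. The leukocyte and endothelial sums thus lay slightly lower in knockdown, while the fibroblast sums of the groups just overlapped. The leukocyte markers reached the 62.8th percentile of brightness, and 1 of them, PTPRC, had a positive change (0.17). None of the 19 markers passed the test, and their part in the results was not tested. In the beta-actin control the log2 level at the 3′ end exceeded that at the 5′ end by 1.21 and 1.10 in knockdown against 1.04 and 0.995 in mock, a sign of RNA integrity that moved with the groups. The same measure in the GAPDH control was 0.201 and 0.215 in knockdown against 0.199 and 0.211 in mock, and did not separate them. The part of RNA integrity in the results below was not tested.

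At the brightest probe set of each gene, 8 of the 9 enzymes had a positive change, as did 48.6% of all genes, and SHMT1 had a negative one. In 7 of the 9 both knockdown arrays lay above both mock arrays and in 1 below them, against 25.8% and 23.6% of all genes. Of the 33 probe sets, 24 were higher in both knockdown arrays than in both mock arrays and 2 were lower in both, against 24.2% and 22.5% of all probe sets. The median log2 change was 0.20 over the 33 and -0.00248 over the whole table. None of the 33 passed the whole-table limma test at an adjusted p of 0.05, which 0.316% of all probe sets passed, and at an unadjusted p under 0.05 there were 15 higher and 1 lower, against 9.1% and 7.07% of all probe sets. Since this contrast was in view when the enzymes were picked, nothing is read from these counts. Probe sets of 1 gene read the same RNA and are not separate evidence, and the shares of 24.2% and 22.5% stand behind each count of such probe sets below.

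**Figure D1:**
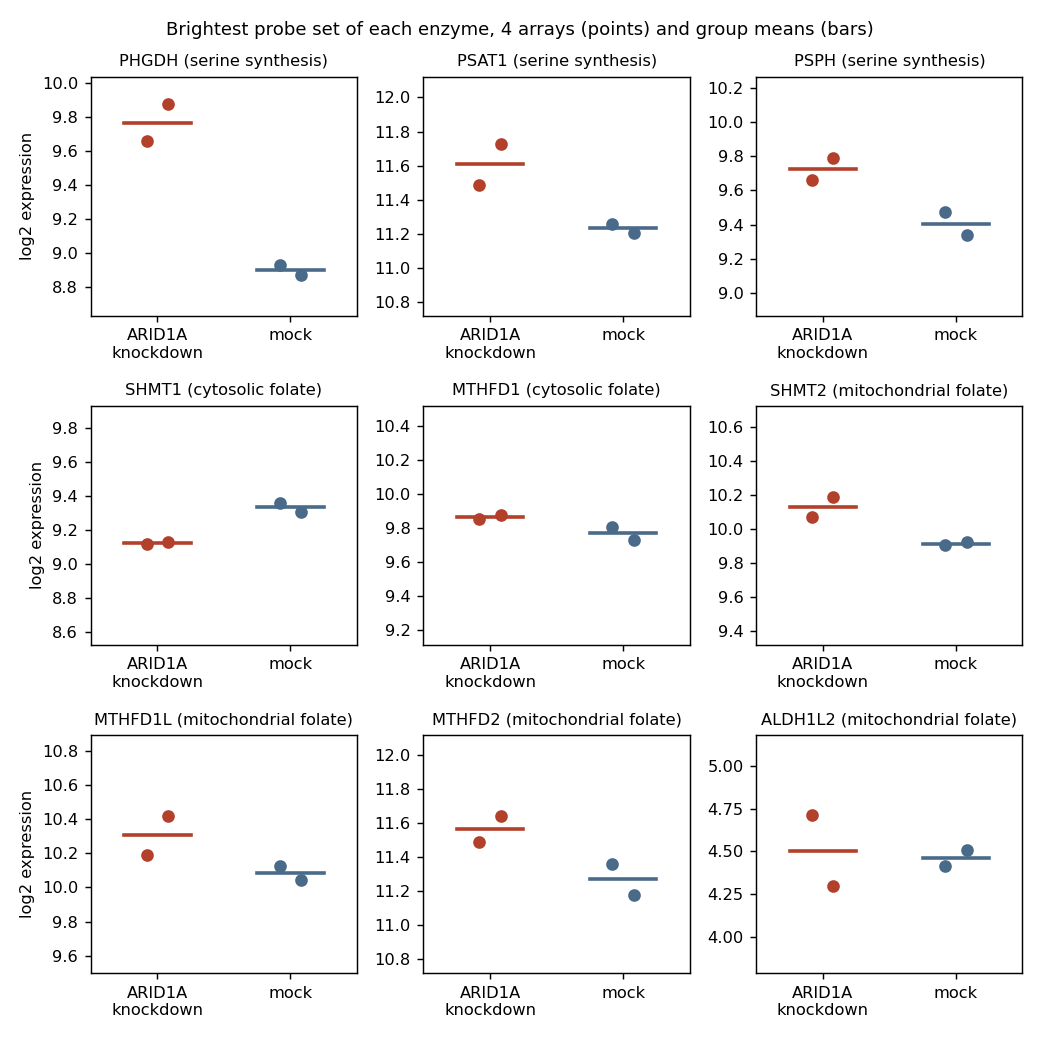
Log2 expression of the brightest probe set of each enzyme, 1 panel per gene, with knockdown arrays on the left and mock arrays on the right (points: replicates 1 and 2 from left to right; bars: group means; every panel spans the same log2 range). PHGDH has the widest gap, at 9.77 in knockdown against 8.90 in mock; SHMT1 is the 1 gene with both knockdown arrays below both mock arrays, and the arrays of ALDH1L2 overlap.

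PHGDH, which commits glucose carbon to serine, had the largest difference of the 9. Its log2 levels were 9.66 and 9.88 in the knockdown arrays, against 8.93 and 8.87 in the mock arrays, with means of 9.77 ± 0.156 and 8.90 ± 0.0424 (SD, n = 2 each). Both knockdown arrays lay far above both mock arrays. The 2 knockdown arrays differed by 0.22 and the 2 mock arrays by less. The log2 change was 0.87 (SE 0.0979, 95% confidence interval 0.62 to 1.11), or 1.82-fold. Against the mock mean, knockdown replicate 1 was 1.69-fold and replicate 2 was 1.97-fold higher. This is the only probe set paired with PHGDH alone, so no second one could be set beside it. Another, which is paired with PHGDH and MZT2B together and so stands for neither, had a change of 0.12. In bulk RNA, more RNA per cell and more cells that carry it cannot be told apart, here and below.

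PSAT1, the aminotransferase of the second step, was covered by 8 probe sets, and in all 8 both knockdown arrays lay above both mock arrays, as in 24.2% of all probe sets. The brightest, 11756182_s_at, read 11.49 and 11.73 in knockdown against 11.26 and 11.20 in mock, a log2 change of 0.38 (SE 0.102) or 1.30-fold. The widest gap was at 11742991_a_at, with 9.90 and 10.03 in knockdown against 9.49 and 9.42 in mock and a change of 0.51 (SE 0.0824). Next came 11742993_x_at at 0.43, 11747349_s_at at 0.40, 11751230_a_at at 0.37 and 11742992_s_at at 0.33. The lowest changes belonged to the dimmest probe sets of the gene, 11741479_a_at at 0.18, with means of 8.43 in knockdown and 8.25 in mock, and 11747348_a_at at 0.11, with 8.59 in knockdown and 8.48 in mock. The probe sets of PSAT1 thus shared a direction while their sizes ran from 0.11 to 0.51, and 4 of the 8 end in _s_at or _x_at, which marks probes that can match other sequences.

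PSPH, the phosphatase that releases serine, had smaller differences in the same direction. Its brightest probe set, 11730796_x_at, read 9.66 and 9.79 in knockdown against 9.47 and 9.34 in mock, a log2 change of 0.32 (SE 0.0897) or 1.25-fold. At 11754138_s_at the levels were 9.32 and 9.45 in knockdown against 9.30 and 9.11 in mock, a change of 0.18 (SE 0.0995) in which the lower knockdown array and the higher mock array nearly met. The third, 11763252_x_at, read 6.60 and 6.62 in knockdown against 6.53 and 6.42 in mock, a change of 0.13 (SE 0.0770). All 3 probe sets of PSPH carry the suffix for shared probes, so that none reads the gene alone by design. Over the 12 probe sets of the 3 serine enzymes, all 12 were higher in both knockdown arrays (24.2% of all probe sets were), and the median change was 0.35. With the probe sets of PSPH averaged its change was 0.21.

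In the mitochondrial branch, SHMT2 opens the route by splitting serine into glycine and a folate-bound carbon. Its brightest probe set, 11750992_x_at, read 10.07 and 10.19 in knockdown against 9.90 and 9.93 in mock, a log2 change of 0.21 (SE 0.0787). The other 3 had changes of 0.30 at 11747537_x_at, 0.20 at 11746438_a_at and 0.18 at 11756615_x_at. In all 4 both knockdown arrays were above both mock arrays, and the mock arrays lay within 0.021 of each other at the brightest. Its 4 changes spanned 0.18 to 0.30. Of the 4 probe sets 3, the brightest among them, end in _x_at and so have probes that can match other sequences.

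MTHFD2, the dehydrogenase and cyclohydrolase of the next steps, is scarce in most adult tissues and high in tumours and growing cells. Its brightest probe set, 11745892_a_at, read 11.49 and 11.64 in knockdown against 11.36 and 11.17 in mock, a log2 change of 0.30 (SE 0.1002) or 1.23-fold. The changes at the other probe sets were 0.27 at 11745893_s_at, 0.24 at 11745870_a_at, 0.20 at 11744003_x_at and 0.11 at 11744002_s_at. At the last of these the groups overlapped, with 11.14 and 11.33 in knockdown against 11.16 and 11.09 in mock. In the other 4 they did not. Of the 5 probe sets of MTHFD2, 3 carry a suffix for shared probes.

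MTHFD1L, the synthetase that frees formate inside the mitochondrion, was less even. Its brightest probe set, 11728985_s_at, read 10.19 and 10.42 in knockdown against 10.13 and 10.04 in mock, a log2 change of 0.22 (SE 0.1005). Knockdown replicate 2 carried most of that difference, since the change was 0.11 without it and 0.34 without knockdown replicate 1. At 11728986_x_at the change was 0.33 (SE 0.0804) and at 11728984_a_at 0.25 (SE 0.0930), both with groups that did not overlap. The fourth, 11756196_a_at, read 8.65 and 8.52 in knockdown against 8.65 and 8.51 in mock, a change of 0.01 with arrays that overlapped. The 4 probe sets of MTHFD1L therefore did not share 1 size of change, and which transcripts they read was not examined. A suffix for shared probes marks 2 of the 4, the brightest among them.

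ALDH1L2, which oxidises the mitochondrial formyl group, was dim. Its 2 probe sets lay at the 28.9th and 4.31st percentiles of brightness among all probe sets. The brighter, 11752169_a_at, read 4.71 and 4.30 in knockdown against 4.42 and 4.51 in mock, so that the knockdown arrays fell on either side of the mock arrays. Its change of 0.04 had an SE of 0.146, and it was -0.17 without knockdown replicate 1. The other, 11740521_a_at, read 3.05 and 3.14 in knockdown against 3.11 and 3.15 in mock, a change of -0.03. No difference in ALDH1L2 was detectable at this brightness, with a 95% confidence interval of -0.32 to 0.40 at the brighter probe set.

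Of the 2 cytosolic enzymes one had a negative and one a small positive change. SHMT1, the cytosolic hydroxymethyltransferase, read 9.12 and 9.13 in knockdown against 9.36 and 9.31 in mock at its brightest probe set, 11733969_a_at, a log2 change of -0.21 (SE 0.0719) or 0.864-fold. The 11751011_x_at probe set was also lower in both knockdown arrays, at 7.27 and 7.28 in knockdown against 7.48 and 7.40 in mock, a change of -0.16 (SE 0.0746). The other 3 overlapped, with changes of 0.00 at 11740366_a_at, -0.02 at 11756209_x_at and -0.06 at 11762240_at. SHMT1 was thus lower in both knockdown arrays at 2 of its 5 probe sets and higher in both at none, and with the 5 averaged its change was -0.09.

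MTHFD1, the cytosolic enzyme with all 3 folate activities in 1 chain, had a single probe set. It read 9.85 and 9.88 in knockdown against 9.81 and 9.73 in mock. The groups did not overlap, by the narrow margin between 9.85 and 9.81, and the change was 0.09 (SE 0.0744, 95% confidence interval -0.09 to 0.28). A change of that size is close to the spread between arrays of a group.

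**Figure D2:**
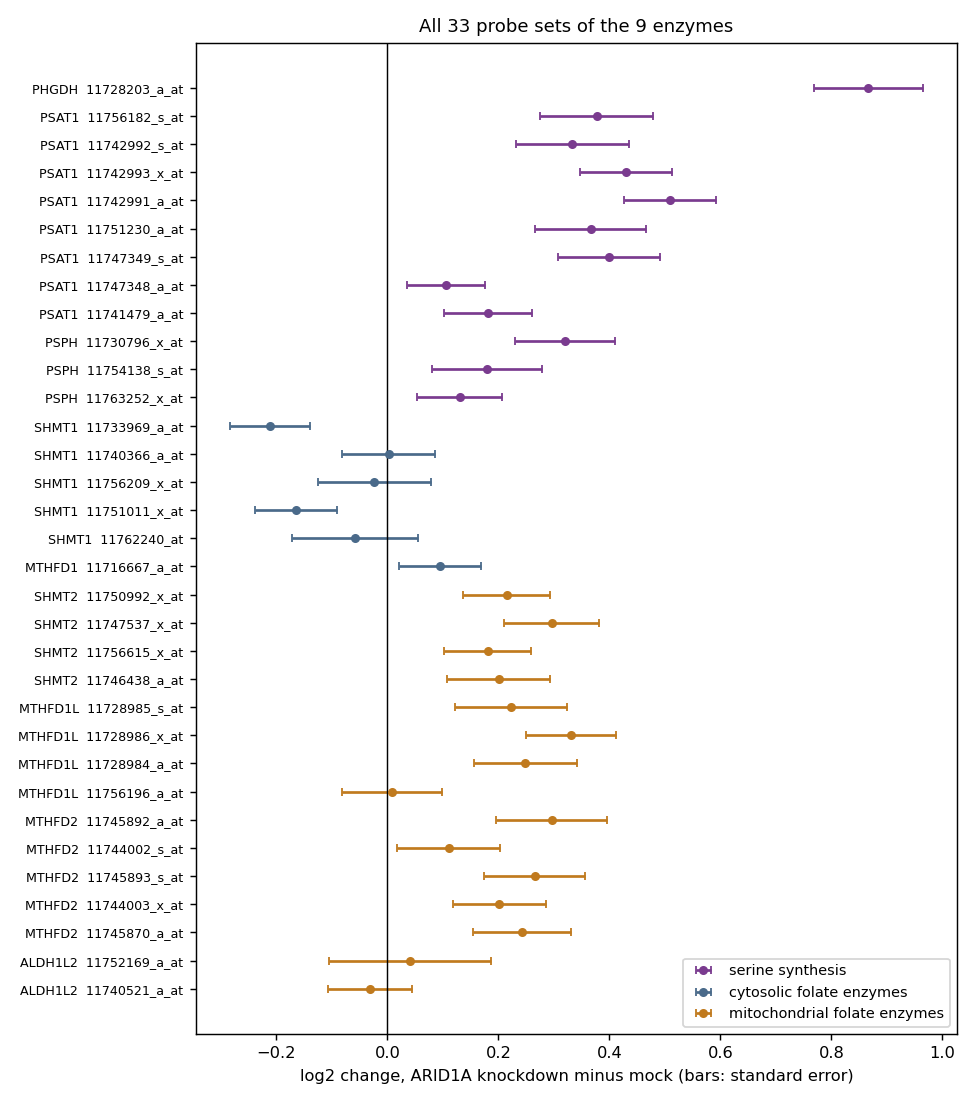
Log2 change (knockdown minus mock) of each of the 33 probe sets, by gene and coloured by branch, the brightest of a gene on top; bars are standard errors from the whole-table fit. The 12 serine probe sets lie at 0.11 or above, the 13 of SHMT2, MTHFD1L and MTHFD2 between 0.01 and 0.33, and the 5 of SHMT1 between -0.21 and 0.00.

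Set side by side, the mitochondrial and cytosolic forms of the serine hydroxymethyltransferase moved unequally. Relative to each gene's own mock mean, SHMT2 was ahead of SHMT1 by 0.37 and 0.48 (log2) in knockdown, against -0.04 and 0.04 in mock. At these probe sets that is a 1.34-fold shift in their ratio within an array. Neither knockdown array came near the 2 mock values, but those mirror each other by construction and are a weak yardstick. The SHMT1 probe set used here had the lowest change of its 5, and the SHMT2 probe set has shared probes. With the probe sets of a gene averaged, the changes were 0.22 for SHMT2 and -0.09 for SHMT1, a smaller gap. For MTHFD2 over MTHFD1 the same quantity was 0.14 and 0.27 in knockdown against 0.05 and -0.05 in mock. For MTHFD1L over MTHFD1 it was 0.03 and 0.23 in knockdown against 0.0012 and -0.0012 in mock, so that knockdown replicate 1 lay close to the mock arrays. For ALDH1L2 over its cytosolic form ALDH1L1 it was 0.11 and -0.21 in knockdown against 0.07 and -0.07 in mock, with knockdown arrays on both sides. Over the brightest probe sets the median change was 0.38 for the 3 serine enzymes, 0.22 for the 4 mitochondrial enzymes and -0.06 for the 2 cytosolic ones, and -0.0043 for all genes.

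Most of the enzymes also moved the same way between arrays of the same group. Knockdown replicate 2 exceeded knockdown replicate 1 at 29 of the 33 probe sets (87.9%), by a median of 0.13, against 50.1% of all probe sets. In mock, replicate 2 exceeded replicate 1 at 8 of the 33 (24.2%), against 48.1% of all probe sets. At the brightest probe set of each gene the counts were 8 of 9 in knockdown and 2 of 9 in mock, against 48.4% and 47.2% of all genes. In knockdown ALDH1L2 went the other way there, with a difference of -0.42, and the cytosolic enzymes had a median difference of only 0.02. The median of the 33 relative to their mock means was 0.13 in knockdown replicate 1 and 0.27 in knockdown replicate 2, against 0.03 in mock replicate 1 and -0.03 in mock replicate 2. The size of the changes above therefore depended on which knockdown array was taken, while 25 of the 33 lay above their mock mean in both, as did 34.9% of all probe sets.

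Over the 4 arrays the genes most like PHGDH, by the Euclidean distance between log2 values centred on each gene's mean, were ASNS, TNFRSF19, CEACAM5, TAOK1 and OSTM1. ASNS, asparagine synthetase and a classical ATF4 target, was the nearest of all 18132 genes at a distance of 0.0544. Its levels were 11.92 and 12.15 in knockdown against 11.27 and 11.16 in mock. The TNF-family receptor gene TNFRSF19 lay at 0.0616, the adhesion molecule gene CEACAM5 at 0.0918, the kinase gene TAOK1 at 0.102 and the lysosomal membrane gene OSTM1 at 0.105. Only the brightest probe set of each gene was compared, and for all but TAOK1 it ends in _s_at or _x_at. The other probe sets of ASNS had changes from 0.81 to 0.88. Those of TNFRSF19 ran from 0.22 to 0.89, of CEACAM5 from 0.18 to 1.09 and of OSTM1 from 0.27 to 0.64, and the other of TAOK1 was at 0.43. With 4 arrays such likeness means chiefly a similar gap between the groups and the same order of the arrays within them.

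**Figure D3:**
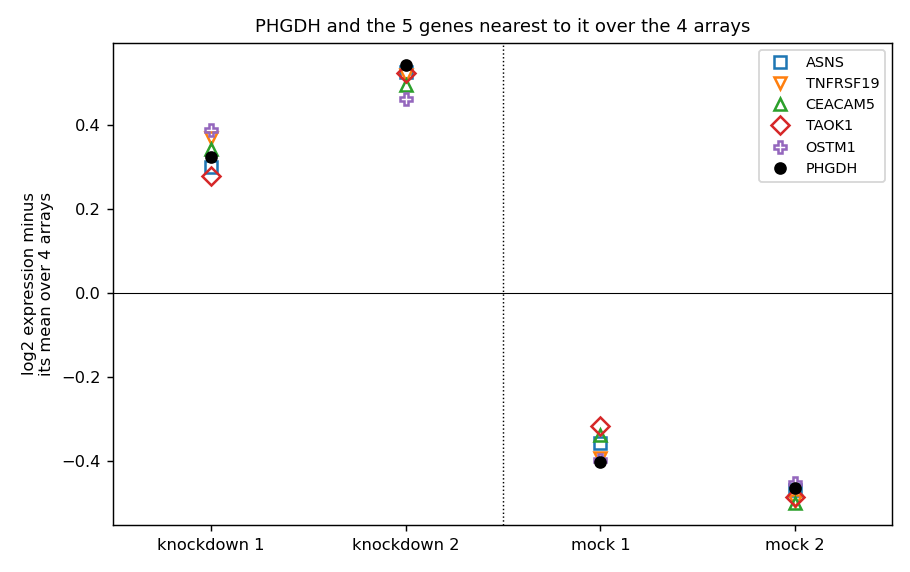
Log2 expression minus the gene's own mean over the 4 arrays, for PHGDH (filled circles) and the 5 nearest genes (open symbols), knockdown arrays on the left of the dotted line and mock arrays on the right. In all 6 genes knockdown replicate 2 is above replicate 1 and mock replicate 2 is below replicate 1.

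The genes around this route were then examined, 72 measured genes in 7 lists that were drawn up with earlier results of these data known. At the brightest probe set 1 of the 72 passed the whole-table test, and 0.403% of all genes did. That gene was DDIT4, an inhibitor of mTORC1 induced by stress, which read 9.96 and 10.19 in knockdown against 9.06 and 8.92 in mock (log2 change 1.08, SE 0.107, limma adjusted p = 0.0447). Its call was lost when probe sets with shared probes were left out (limma adjusted p = 0.0524). Its own probe set is not one of those, and its change stayed at 1.08. The count of list genes past the test ran from 0 to 21 over the settings tried. At an unadjusted p under 0.05, 18 were higher and 8 lower, against 9.76% and 7.25% of all genes. The median change over the 72 was 0.05, against 0.38 for the serine enzymes. A positive change was seen in 42 of the 72 and in 48.6% of all genes, and that share stands behind each count of positive genes below.

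Transporters split in both directions, with 7 of 13 positive and a median of 0.02. SLC38A2, an amino-acid transporter induced on amino-acid shortage, read 11.71 and 11.81 in knockdown against 11.23 and 11.26 in mock, a log2 change of 0.52 (SE 0.0765, limma adjusted p = 0.0728). Its 2 other probe sets had changes of 0.33 and 0.35, and with its probe sets averaged the change was 0.40. SLC1A5, a carrier of glutamine and serine, had a change of -0.30 (0.206), and SFXN2, a mitochondrial relative of the serine carrier SFXN1, one of -0.46 (0.153). None of the 13 passed the test.

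Of the other folate enzymes 6 of 8 were positive, with a median of 0.08. In 3 of the 8 both knockdown arrays lay above both mock arrays and in 1 below them, against 25.8% and 23.6% of all genes. TYMS, thymidylate synthase, read 10.92 and 11.00 in knockdown against 10.74 and 10.69 in mock, a log2 change of 0.24 (SE 0.0746, limma adjusted p = 0.219). MTHFD2L, a mitochondrial relative of MTHFD2, had a change of 0.25 (0.297), though its other probe sets ran from -0.35 to 0.24. With its probe sets averaged the change was 0.01. FPGS, which adds glutamates to folate, had a change of -0.14 (0.443), and of -0.05 with its probe sets averaged.

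Glycine cleavage, which breaks down the glycine that SHMT2 makes, showed 2 of 4 positive and a median of 0.01. GLDC, its decarboxylase, was dim at 3.31 and 3.08 in knockdown against 3.43 and 3.40 in mock (log2 change -0.22, limma adjusted p = 0.357), and its second probe set had a change of 0.11. GCSH had a change of 0.18 with overlapping arrays (0.624), and -0.01 without mock replicate 2. DLD had a change of 0.05 (0.784).

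In the methionine cycle and transsulfuration, 7 of 12 were positive and the median was 0.05. CTH, which cleaves cystathionine made from serine and homocysteine, read 8.15 and 8.42 in knockdown against 7.72 and 7.57 in mock, a log2 change of 0.64 (SE 0.114, limma adjusted p = 0.0984). MAT2A, which makes S-adenosylmethionine, had a change of -0.37 (SE 0.0720, 0.114) at its brightest probe set, which read 11.63 and 11.67 in knockdown against 12.04 and 12.00 in mock. Its 5 others ran from -0.28 to 0.01, and their mean with it was -0.20. MTRR, the reductase that keeps methionine synthase active, had a change of -0.26 (0.206) at a probe set ending in _s_at. Its 3 other probe sets ran from -0.38 to -0.01, and with its probe sets averaged the change was -0.21. None of these 12 passed the test.

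The purine enzymes, which consume cytosolic formyl groups, had no common direction. Of 6 measured, 3 were positive and the median was -0.06. PFAS had a change of -0.33 (SE 0.0755, limma adjusted p = 0.142), PPAT, the first committed enzyme, of -0.22 (0.252) and PAICS of -0.14 (0.410). The 3 other probe sets of PFAS ran from -0.12 to -0.08 and the other of PAICS was at 0.01, so that with probe sets averaged the changes were -0.16 for PFAS and -0.06 for PAICS. At the brightest probe sets each of these 3 was lower in both knockdown arrays than in both mock arrays, as were 23.6% of all genes.

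Among other users of serine, 3 of 7 were positive and the median was -0.04. SARS1, the cytosolic seryl-tRNA synthetase, read 10.93 and 11.03 in knockdown against 10.64 and 10.62 in mock, a log2 change of 0.34 (SE 0.0767, limma adjusted p = 0.135). SRR, serine racemase, had a change of 0.19 (0.433), or 0.09 with its 2 probe sets averaged, and PTDSS1, a phosphatidylserine synthase, of -0.13 (0.479).

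ATF4 and its targets had 14 of 22 positive and a median of 0.21, the value closest to that of the mitochondrial enzymes. Beside DDIT4, ASNS had a log2 change of 0.83 (SE 0.103, limma adjusted p = 0.0561) and the pseudokinase gene TRIB3 of 0.39 (SE 0.0782, 0.114). Members of this list went both ways, 14 positive and 8 negative. In 13 of the 22 both knockdown arrays lay above both mock arrays and in 6 below them, against 25.8% and 23.6% of all genes. The list was drawn up with earlier results of these data known, so nothing is read from these counts. The amino-acid transporters SLC7A11, SLC7A5 and SLC3A2 had changes of -0.28, -0.16 and -0.20, and the proline enzymes PYCR1 and ALDH18A1 of -0.01 and -0.06, none past the test. ATF4 itself read 12.34 and 12.37 in knockdown against 12.08 and 12.02 in mock (change 0.31, limma adjusted p = 0.153). This is the only probe set paired with ATF4 alone and it ends in _x_at. The ATF4 protein was not measured.

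**Figure D4:**
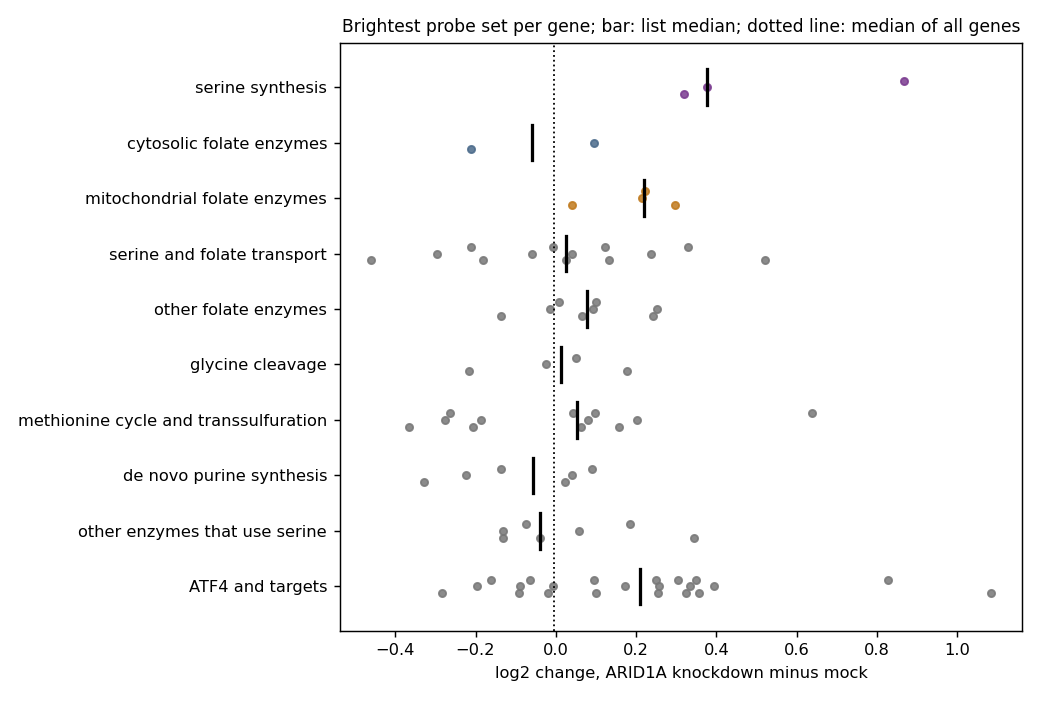
Log2 change (knockdown minus mock) of the brightest probe set of each gene, for the 3 branches described here (coloured) and the 7 lists around them (grey); bars are list medians and the dotted line is the median of all genes. The serine enzymes have a median of 0.38 and the ATF4 list one of 0.21, while the purine list has one of -0.06.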

How the data were processed

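Total RNA of OE33 cells was hybridised to 4 Affymetrix PrimeView arrays. The deposited table holds 1 log2 value per probe set and array. The submitters' processing notes name RMA and Partek without version or role. RMA sets the arrays to a common distribution, so that a shift in all mRNA at once is invisible and changes of dim probe sets are understated. The genome build is not given in the sources used here, nor is any scan batch. Arrays have no read depth, and their number limits the precision.

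After removal of 79 control probe sets, 49293 were tested, and the platform annotation gave 1 gene for 44988 of them, several for 1832 and none for 2473. A gene is represented by its brightest probe set. Knockdown minus mock was fitted with limma 3.58.1 in R 4.3.3 (lmFit, eBayes, two-sided, Benjamini-Hochberg over all probe sets, threshold 0.05), and the procedure was tested on simulated data. It left 2 residual degrees of freedom, and p-values measure the spread between these arrays. The members and the lists were chosen with earlier results of these data known. Named genes were all members, ARID1A, of each list the genes past the test and the 3 with the smallest p, and the 5 nearest to PHGDH. The 5 negative members of the ATF4 list that are named, of 8, and ATF4 itself were picked after their values were seen. Of 80 listed genes, 8 were not analysed here. Replicate numbers were not used as pairs, since the labels tie them to nothing shared. Alternatives are listed in the closing section.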

Additional observations from a re-analysis of the deposited data

How the results depend on the processing

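The count of probe sets past the test followed the settings, against 156 as reported, with 0 probe sets of the 9 enzymes and 1 gene of the surrounding lists. With arrays centred on their medians it was 671, with 1 probe set of the enzymes and 4 list genes. Under quantile normalization it was 297, with 1 and 2. Without probe sets below the 25th percentile of brightness it was 487, with 1 and 3. With an intensity trend in the spread it was 3209, or 6.51% of all probe sets, with 13 of the 33 probe sets of the enzymes, from 6 genes, and 21 list genes. Without probe sets ending in _s_at or _x_at it was 23, with 0 list genes. The probe set of DDIT4 stayed in with the same change of 1.08, but its limma adjusted p was 0.0524. With the replicate block it was 0, with 0 list genes, and with any 1 array left out it was 0 with 0 list genes, in limma. Those fits leave 1 residual degree of freedom, and ARID1A was not called in them either, so they do not tell how stable the calls are. The share of probe sets with an unadjusted p under 0.05 was 16.2% as reported, 11.2% with the block and 9.19% to 13.8% with an array left out. Deviations of same-numbered arrays correlated at -0.202 over probe sets, so a block with the mock numbers crossed was added after the data were seen. It called 0 probe sets and 0 list genes, with 19.2% at an unadjusted p under 0.05. With the probe sets of a gene averaged, 356 of 18132 genes passed (1.96%), with 1 of the enzymes and 5 list genes. Where 1 enzyme was called, it was PHGDH, whose change was known when the enzymes were picked, so nothing is read from that call.

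The direction of the serine and mitochondrial medians held in every setting run for them. The enzymes were picked with their changes in these same arrays known, and each setting reuses those arrays. A kept sign was thus largely fixed by the choice, and nothing is read from it. With an array left out, the median was 0.256 to 0.498 for the serine enzymes, 0.188 to 0.305 for the mitochondrial and -0.0911 to -0.0254 for the cytosolic ones. Without shared probe sets the serine median was 0.688, over PHGDH and PSAT1, the 2 that remained by construction. With the probe sets of a gene averaged, the cytosolic median was 0.0017 and so lost its sign. Among 22 genes, ARID1A and those named from the lists, 2 changed sign. These were GLDC without shared probe sets (0.110) and GCSH, which ran from -0.0088 without mock replicate 2 to 0.365 without mock replicate 1. Dim probe sets, such as those of ALDH1L2, allow no statement beyond their intervals.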
